A study of Mus musculus with 12 samples.

Results

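The genes described here are the serine proteases of epithelial surfaces and the inhibitors that hold them in check. They were chosen by name: every gene of the deposited tables whose name starts with Tmprss, with Klk followed by a digit or b, or with Spink, together with St14, Prss8, Spint1, Spint2 and Hpn. The rule left out 11 names ending in -ps. It took 62 of 53801 genes, of which 27 were kallikreins, 19 were transmembrane proteases (the Tmprss genes, St14 and Hpn), 1 was the membrane-anchored protease Prss8, 13 were Kazal-type inhibitors (the Spink genes) and 2 were Kunitz-type inhibitors (Spint1 and Spint2). The choice used no expression value.

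Serine proteases of this kind are made as inactive precursors and are switched on by cleavage, often by one another. Matriptase, the product of St14, sits in the epithelial cell membrane and activates prostasin, the product of Prss8, and the Kunitz inhibitors encoded by Spint1 and Spint2 block it. In the epidermis, kallikreins are secreted by differentiating keratinocytes and cut the junction proteins that hold cornified cells together, and the inhibitor encoded by Spink5 restrains them.

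The study sorted cells by flow cytometry from cutaneous squamous cell carcinomas of mice of the FVB strain. Tumor basal cells, which carried a Rosa-YFP label and were positive for CD49f and CD29, were split by a TGF-beta signaling reporter (mScarlet) into positive and negative cells. Macrophages, positive for CD45 and F4/80, were split by the Fc epsilon receptor I alpha chain (FceRIa) into positive and negative cells. Each of the 4 groups had 3 RNA-seq libraries, numbered 1 to 3 in the titles, and the first comparison asked what distinguishes tumor cells that respond to TGF-beta. The labels give no age, sex, tumor of origin or treatment, name no driver for the Rosa-YFP label or the reporter, and do not say whether tumors were pooled. They do not say that libraries came from separate mice either, so p-values measure the spread between these libraries, which may be technical.

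Libraries held 27951632 to 35088897 counts in the tumor cells and 33704786 to 40041144 in the macrophages. Levels are given as CPM, the counts of a gene scaled to a common size of the normalized library, and differences as log2 of positive over negative cells with their standard error. Tumor libraries 1 and 3 of each group were much more alike than either was to library 2: the chi-square of their counts per degree of freedom was 3.11 in reporter-negative and 1.62 in reporter-positive cells, against 47 to 99.5 for the pairs with library 2. Deviations from the group means ran together in libraries of the same number (correlations of 0.554 to 0.733 in tumor cells and 0.729 to 0.831 in macrophages), so a paired fit with the number as a block is given beside the unpaired one. In the tumor cells the numbers 1 and 3 could not be told apart in this respect (0.571 and 0.561 when crossed). Keratinocyte markers summed to between 81300 and 107000 CPM in the tumor libraries and macrophage markers to between 19.2 and 94.5 CPM, with Cd3e of T cells at 0 in all of them. Macrophage libraries had 15600 to 31800 CPM of macrophage markers and 676 to 5140 CPM of keratinocyte markers, with Krt14 alone at 97.1 to 1700 CPM. Keratinocyte transcripts were thus counted in every macrophage library. The keratinocyte sum includes Cdh1 (140 to 1450 CPM) and Epcam (16.1 to 529 CPM). Both were highest in the macrophage library numbered 3 of each group, where Krt14 was lowest.

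Of the 62 genes, 21 passed the filter on low counts in the tumor cells, 18 had counts but fell below it (at most 0.754 CPM in any library) and 23 had no count in any tumor library. Of the 21, 18 passed in both groups, and Hpn, Klk12 and Tmprss2 passed through the reporter-positive libraries alone, so the counts below describe the genes that passed and not all 62. All 21 tested genes were higher on average in reporter-positive cells, with a median log2 difference of 1.02 against 0 over all 13604 genes tested. The unpaired edgeR quasi-likelihood test, adjusted over all genes, called 1 of the 21 higher (Tmprss11b) and 0 lower, where 0.573% of all tested genes were called higher and 0.235% lower. At an unadjusted p under 0.05 it had 14 higher and 0 lower (11.1% and 8.34% of all genes). DESeq2, which gave an adjusted p for 19 members, called 11 higher and 0 lower (5.09% and 2.86% of all genes). In the paired fit 13 of 21 were higher (11 of them among the genes that passed in both groups) and 0 lower, where 10.7% of all tested genes were called higher and 7.34% lower. The 2 groups did not overlap for 16 of the 21, each time with reporter-positive cells above, where 14.6% of all tested genes were separated in that direction. Each tested gene was measured with the same 6 libraries, so these counts are not independent of one another.

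**Figure D1:**
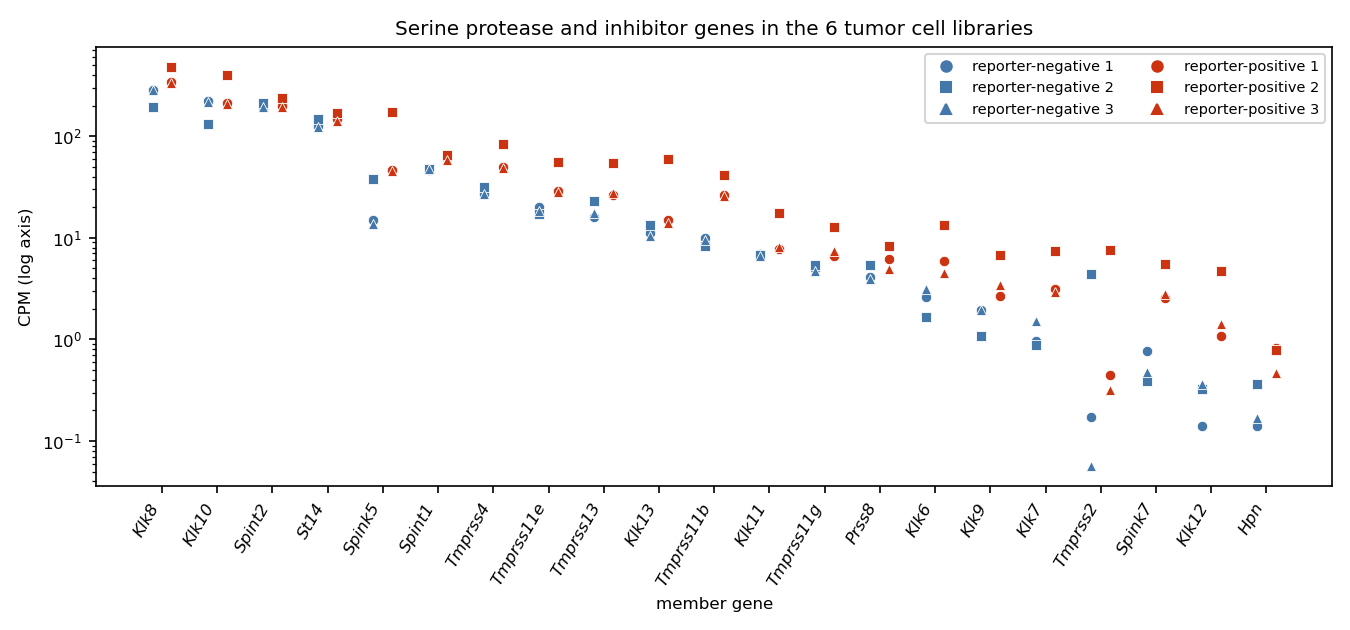
CPM (log axis) of the 21 tested protease and inhibitor genes in the 6 tumor cell libraries, ordered by mean level; blue symbols are reporter-negative and red symbols reporter-positive libraries, and the shape gives the replicate number. Red lies above blue for most genes, and reporter-positive replicate 2 is the highest library for all but Hpn, where it reads 0.787 against 0.822 in replicate 1.

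The bases before the transcription start are shown for 4 genes on which the results turn, in the order Tmprss11b, Klk7, Spint1 and Hpn. Tmprss11b had the unpaired call in tumor cells. The kallikrein Klk7 and the Kunitz inhibitor Spint1 were both called in the paired fits of both cell types, with opposite signs, as was St14. Hpn was higher in macrophages than in tumor cells. The sequences are RefSeq promoters on GRCm38.p6, written in the direction of transcription. They cover 250 bases before the start, or 186 for Tmprss11b, where the 64 bases that GENCODE places inside the gene were left out. Capitals mark the letters CAGACA or their reverse complement, letters that SMAD proteins are known to bind. The windows are chr5:86676363-86676548, minus strand, chr7:43811044-43811293, plus strand, chr2:119237110-119237359, plus strand and chr7:31115327-31115576, minus strand.
Tmprss11b: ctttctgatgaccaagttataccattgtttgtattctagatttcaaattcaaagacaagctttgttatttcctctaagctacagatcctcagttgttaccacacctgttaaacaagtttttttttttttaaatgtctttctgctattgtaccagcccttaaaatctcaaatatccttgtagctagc
Klk7: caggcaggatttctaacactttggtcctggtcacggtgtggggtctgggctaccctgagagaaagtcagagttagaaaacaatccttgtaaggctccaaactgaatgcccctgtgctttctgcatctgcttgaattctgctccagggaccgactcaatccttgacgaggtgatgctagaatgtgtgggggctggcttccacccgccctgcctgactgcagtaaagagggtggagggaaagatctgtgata
Spint1: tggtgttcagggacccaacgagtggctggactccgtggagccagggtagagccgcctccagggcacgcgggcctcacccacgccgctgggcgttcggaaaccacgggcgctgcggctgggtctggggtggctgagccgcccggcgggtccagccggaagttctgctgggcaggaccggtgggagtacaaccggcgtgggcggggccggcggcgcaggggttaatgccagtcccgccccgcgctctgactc
Hpn: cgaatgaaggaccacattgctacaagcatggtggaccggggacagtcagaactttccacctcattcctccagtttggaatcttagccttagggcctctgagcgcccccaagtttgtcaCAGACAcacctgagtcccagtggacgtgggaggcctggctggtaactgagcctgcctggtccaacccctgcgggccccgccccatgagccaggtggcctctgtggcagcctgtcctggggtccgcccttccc

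A promoter was found in the RefSeq table for 43 of the 62 genes, in 50 windows, and 17 of these windows belong to genes with at least 0.5 CPM in either cell type. Among the 17, CAGACA occurred in 3 (Hpn, Klk6 and Spint2), against 17.1% of all 32851 windows. The AP-1 letters TGANTCA, the SMAD palindrome GTCTAGAC, the grainyhead-like letters AACCGGTT and TATAAA occurred in 0 of the 17, against 6.75%, 0.167%, 0.116% and 12.4% of all windows. Both strands were searched over 250 bases, and a match or its absence describes these letters in this window only.

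Of the 8 transmembrane proteases that could be tested in tumor cells, 7 rose in the paired fit and 1 in the unpaired fit. Over all tested genes 10.7% and 0.573% were called higher. The median log2 difference of the 8 was 0.98 in both fits. Hpn, which is among the 7, and Tmprss2 passed the filter through the reporter-positive libraries alone, so they favour a rise in these counts. Tmprss11b, a protease of the airway trypsin-like subfamily, read 9.87, 8.27 and 9.44 CPM in reporter-negative libraries 1 to 3 and 26.6, 41.2 and 26.0 CPM in reporter-positive libraries. Every reporter-positive library was above every reporter-negative one. The difference was 1.77 ± 0.20 (SE, adjusted p = 0.0391) without the block and 1.73 ± 0.18 (adjusted p = 0.00532) with it. When each library was left out in turn, the unpaired call held only without reporter-positive replicate 2 (adjusted p = 0.0074), and the other adjusted p-values were between 0.0972 and 0.25. The gene lies on chromosome 5 (GRCm38, 86657631 to 86676362, minus strand) in a run of 7 Tmprss11 genes between 86231481 and 86745815.

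Both tested neighbours of that run rose in the paired fit. Tmprss11e read 20.0, 17.1 and 18.3 CPM in reporter-negative and 28.7, 55.3 and 28.5 CPM in reporter-positive libraries, a difference of 0.95 ± 0.22 in the paired fit (adjusted p = 0.034) against 0.12 for the unpaired adjusted p. Tmprss11g read 4.89, 5.36 and 4.76 against 6.64, 12.9 and 7.46 CPM, a paired rise of 0.79 ± 0.17 (adjusted p = 0.0276). Neither pair of groups overlapped, and replicate 2 was the highest positive library for both. The other 4 genes of the run did not pass the filter: Tmprss11a, Tmprss11d and Tmprss11f averaged 0.237, 0.141 and 0.111 CPM in tumor cells, and Tmprss11c had no count in any library.

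Tmprss4, a protease often described in carcinomas, had 26.8, 31.8 and 26.9 CPM in reporter-negative and 49.7, 82.7 and 48.6 CPM in reporter-positive libraries. The groups were well apart, and the difference was 1.08 ± 0.22 (adjusted p = 0.0818) without the block and 1.04 ± 0.11 (adjusted p = 0.00574) with it. Tmprss13, which mouse epidermis needs for a normal barrier, had 16.0, 22.8 and 17.7 CPM against 26.6, 53.8 and 27.5 CPM. Its paired difference was 0.88 ± 0.12 (adjusted p = 0.00948; 0.167 in the unpaired fit). Without both libraries of number 2 the differences of Tmprss4, Tmprss13 and Tmprss11e were 0.87, 0.68 and 0.57, the last being 1.02 in the unpaired fit with all libraries.

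St14, which encodes matriptase, had high levels and the smallest difference of this group. It read 125, 146 and 124 CPM in reporter-negative and 147, 168 and 141 CPM in reporter-positive libraries, so the groups overlapped although each positive library exceeded the negative library of its number. The paired difference was 0.21 ± 0.05 (adjusted p = 0.0294), and the unpaired adjusted p was 0.31. Prss8, its substrate, read 4.12, 5.43 and 3.97 against 6.13, 8.36 and 4.90 CPM, again with overlap, and the paired difference was 0.51 ± 0.12 (adjusted p = 0.0354). Part of its exons lies opposite Kat8, a gene on the other strand with 3590 counts over all tumor libraries, and with no strand setting stated for the counting, reads of the 2 genes could not be told apart. Hpn, which encodes hepsin, was low in tumor cells, with 5, 11 and 6 counts in reporter-negative and 26, 24 and 13 counts in reporter-positive libraries. It passed the filter through the reporter-positive libraries alone, its groups did not overlap, and its paired difference was 1.64 ± 0.37 (adjusted p = 0.0329). The paired calls of St14, Prss8 and Hpn were lost without the pair numbered 1 (adjusted p = 0.264, 0.15 and 0.125) and without the pair numbered 3 (0.174, 0.0633 and 0.0642).

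Tmprss2, the remaining tested gene of this group, differed between replicate numbers more than between groups. It read 0.171, 4.35 and 0.0567 CPM in reporter-negative and 0.442, 7.51 and 0.32 CPM in reporter-positive libraries. Replicate 2 was high in both groups, and the paired difference of 1.01 ± 0.27 missed the threshold (adjusted p = 0.0506).

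Both Kazal inhibitors that could be tested rose in the paired fit. Spink5, whose product restrains the epidermal kallikreins, read 15, 37.5 and 13.7 CPM in reporter-negative and 46.9, 171 and 45.7 CPM in reporter-positive libraries. The groups did not overlap, but reporter-negative replicate 2 came close to the lower positive libraries, and within each number the positive library was higher. The difference was 2.0 ± 0.66 (adjusted p = 0.176) without the block and 1.88 ± 0.11 (adjusted p = 0.00201) with it. Spink7, an inhibitor of the same family known from squamous epithelium, rose from 0.768, 0.392 and 0.482 CPM to 2.56, 5.47 and 2.77 CPM, by 2.63 ± 0.37 in the paired fit (adjusted p = 0.00961; 0.0524 in the unpaired fit). Both genes lie on chromosome 18 among 10 members, the others of which did not pass the filter in tumor cells.

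The Kunitz inhibitors differed from each other. Spint1 read 45.9, 47.3 and 47.7 CPM in reporter-negative and 60.7, 64.7 and 57.9 CPM in reporter-positive libraries, a small difference with little spread: 0.38 ± 0.06 in both fits (adjusted p = 0.0585 without and 0.0108 with the block). Spint2, with 195, 212 and 192 against 198, 238 and 194 CPM, had overlapping groups and a difference of 0.07 ± 0.10 (adjusted p = 0.756). Its paired difference was 0.07 ± 0.05 (adjusted p = 0.421).

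Kallikreins spanned the widest range of levels. The 8 tested genes form 1 uninterrupted block of chromosome 7 from Klk13 to Klk6 (GRCm38, 43712567 to 43832030, 119.5 kb), in the order Klk13, Klk12, Klk11, Klk10, Klk9, Klk8, Klk7 and Klk6. Their median log2 difference was 1.37 in the unpaired and 1.17 in the paired fit, yet 0 and 2 of 8 were called higher, where 0.573% and 10.7% of all tested genes were. Without both libraries of number 2 the median was 0.54. Klk12 rose from 0.142, 0.327 and 0.368 CPM to 1.07, 4.75 and 1.42 CPM, by 2.96 ± 0.38 in the paired fit (adjusted p = 0.00837), on 5, 10 and 13 counts in the reporter-negative libraries; it passed the filter through the reporter-positive libraries alone. Klk7, the chymotrypsin-like enzyme of the cornified layer, rose from 0.967, 0.883 and 1.53 CPM to 3.10, 7.47 and 2.95 CPM, by 1.88 ± 0.38 (adjusted p = 0.0236). Both were separated between groups and both missed the threshold without the block (adjusted p = 0.0926 and 0.0911).

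The most abundant kallikreins were Klk8 and Klk10. Klk8, which encodes neuropsin, read 284, 195 and 287 CPM in reporter-negative and 344, 479 and 332 CPM in reporter-positive libraries. Reporter-negative replicate 2 was the lowest and reporter-positive replicate 2 the highest of the 6, and the difference was 0.59 ± 0.20 in both fits (adjusted p = 0.183 and 0.0965). Klk10 read 221, 131 and 215 CPM against 212, 400 and 206 CPM. Here the positive libraries 1 and 3 lay just below their negative counterparts and the whole difference of 0.53 ± 0.32 (adjusted p = 0.431) came from replicate 2: it was -0.07 without both libraries of that number. Klk13 also depended on replicate 2, with 11.2, 13.4 and 10.3 against 15.1, 60.2 and 14.1 CPM, and its difference of 1.36 ± 0.58 (adjusted p = 0.27) became 0.44. Klk6, with 2.62, 1.67 and 3.12 against 5.88, 13.4 and 4.54 CPM, had a paired adjusted p of 0.0532. Klk11 (6.58 to 6.85 against 7.77 to 17.4 CPM) and Klk9 (1.08 to 1.96 against 2.69 to 6.82 CPM) did not overlap between groups and were not called in either fit. Without both libraries of number 2 the unpaired differences of Klk8, Klk6, Klk9 and Klk11 were 0.24, 0.86, 0.64 and 0.24 against 0.59, 1.68, 1.37 and 0.73. Klk8, Tmprss4 and Tmprss13 share exon bases with genes of the opposite strand, which held 225, 3 and 15 counts over all tumor libraries.

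**Figure D2:**
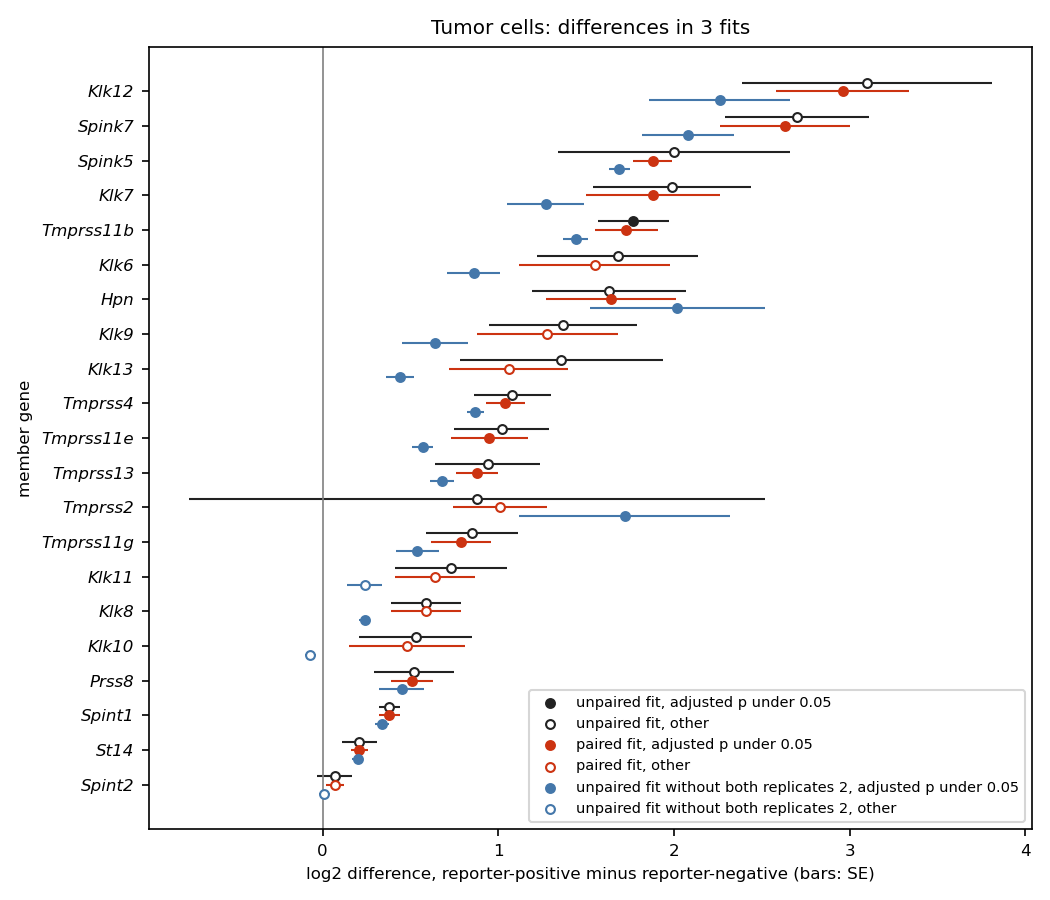
Log2 difference between reporter-positive and reporter-negative tumor cells (horizontal axis, bars are standard errors) for the 21 tested genes in the unpaired fit, the paired fit and the unpaired fit without both libraries of number 2; filled symbols have an adjusted p under 0.05. The unpaired fit fills 1 symbol, the paired fit 13 and the fit without number 2 fills 18, and only Klk10 turns negative, at -0.07 without number 2.

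Leaving out both tumor libraries of number 2 gave 18 calls of 21 in the unpaired fit, all higher, where 20.4% of all genes were called higher and 19.2% lower, and a median log2 difference of 0.64 over the tested members. The 4 libraries left are numbers 1 and 3, which were closely alike within each group. With libraries 1 and 3 of each group summed and counted as 1 sample, a choice made after seeing the data, 22 members were tested, of which 0 were called without the block (0% of all genes) and 11 were called higher and 0 lower with it (4.8% and 1.69% of all genes). Of the 13 paired calls, those of Hpn, Prss8 and St14 were then lost (adjusted p = 0.0603, 0.0945 and 0.224), and Klk6 was called (adjusted p = 0.0438). The 8 suprabasal markers, of differentiating keratinocytes, summed to 673, 1020 and 729 CPM in reporter-negative and 846, 2000 and 812 CPM in reporter-positive libraries. Most of each sum was Krtdap (512, 693 and 557 against 569, 1240 and 553 CPM). In the paired fit 3 of 7 tested (Krt1, Sbsn and Ivl) rose. Krtdap (0.33, adjusted p = 0.195), Krt77 (0.37, adjusted p = 0.649), Krt10 (-0.28, adjusted p = 0.0563) and Lor (-0.35, adjusted p = 0.452) were not called. Without both libraries of number 2 the median log2 difference of the 7 was 0.06, with 3 lower, against 0.64 for the members. The 7 were spread widely in that fit: Sbsn (1.01), Ivl (0.70) and Krt1 (0.40) were called higher and Krt10 (-0.26) lower. The 5 tested genes of desquamation, described below, had a median of 1.29 in it. Leukocyte markers summed to 47.4, 93.4 and 52.6 against 90.3, 393 and 90.3 CPM, most of it from S100a8 and S100a9, which keratinocytes can also make, and mast cell markers to 0.114, 0.687 and 0.198 against 0.253, 5.97 and 0.213 CPM. Macrophage markers summed to 21.8, 67.6 and 19.2 against 29.9, 94.5 and 25.7 CPM, and 3 of 10 (Csf1r, Lyz2 and Mrc1) rose in the paired fit. All 4 sums were highest in reporter-positive replicate 2. The part of these cells in the protease differences was not tested. In bulk libraries, fewer cells of a type and less RNA per cell cannot be told apart.

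Other genes of the pathway were read from 4 lists chosen by function. Over all tested genes the paired fit called 10.7% higher and 7.34% lower, and the unpaired fit 0.573% and 0.235%. Of the list of desquamation and corneodesmosome genes, 5 of 9 were tested: Cdsn, Dsg1a, Dsg1b, Dsc1 and Casp14, which itself encodes a protease. All 5 rose in the paired fit and 0 in the unpaired fit, with a paired median log2 difference of 1.64. Among them, Dsg1a went from 3.61, 7.85 and 3.23 to 8.88, 22.5 and 7.92 CPM (1.38 ± 0.10, adjusted p = 0.0024) and Cdsn, which encodes corneodesmosin, from 1.96, 2.06 and 1.53 to 5.59, 23.3 and 5.15 CPM (2.33 ± 0.38, adjusted p = 0.0138). Dsg1b rose by 2.02 ± 0.15 and Dsc1 by 1.64 ± 0.35. Of the substrates and receptors of membrane-bound proteases, 14 of 18 were tested, 5 rose and 2 fell in the paired fit, and 0 passed without the block. The subunits of the epithelial sodium channel, which prostasin activates, all rose in the paired fit: Scnn1a by 1.17 ± 0.18, Scnn1b by 1.84 ± 0.28 and Scnn1g by 1.31 ± 0.18. Plau, which encodes urokinase, rose by 0.32 ± 0.07, and those that fell were Met and F2r, by 0.34 and 0.46.

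Of 15 other protease inhibitors of epithelia, 11 were tested, 1 rose in the unpaired and 6 in the paired fit, and 0 fell. Serpinb2, an inhibitor of urokinase, passed both: it read 47.5, 37.9 and 49.5 CPM in reporter-negative and 97.1, 82.0 and 99.6 CPM in reporter-positive libraries (1.05 ± 0.13, adjusted p = 0.0391 without the block). The groups were far apart, and here replicate 2 was the lowest library of each group. In the paired fit, Slpi rose by 1.97 ± 0.32, Cst6 by 1.82 ± 0.25 and Serpine2 by 1.18 ± 0.19. Of 19 other serine proteases of epithelia and leukocytes, 8 were tested and 2 rose in the paired fit: Prss27 by 3.33 ± 0.43, from at most 0.199 CPM to at least 0.923 CPM, and Prss23 by 0.23 ± 0.05.

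In the macrophages, 18 of the 62 genes were tested, 29 had counts but fell below the filter (at most 0.954 CPM) and 15 had no count. The unpaired edgeR fit called 0 higher and 0 lower in FceRIa-positive cells, as over all genes (0% of 14988 in each direction). At an unadjusted p under 0.05, 1 was higher and 3 were lower (8.29% and 7.35% of all genes). DESeq2, which gave an adjusted p for 22 members, called 1 higher and 3 lower (3.58% and 3.77% of all genes). The paired fit called 1 higher (Hpn) and 5 lower (St14, Spint1, Spint2, Klk7 and Klk8), where 10.8% of all genes were called higher and 10.2% lower. Of the 18 tested, 17 were lower on average in FceRIa-positive cells, with a median log2 difference of -0.52 against 0 over all genes. Of these 18, 4 (Klk13, Spink2, Tmprss13 and Tmprss4) passed the filter through the FceRIa-negative libraries alone, which favours a lower reading. Another 6 passed in neither group alone. The 6 paired calls were all among genes that passed in both groups. The groups did not overlap for 1 gene on the higher and 3 on the lower side, where the shares over all genes were 11.6% and 9.78%.

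Matriptase and its inhibitors were the members most clearly lower. St14 read 39.4, 42.3 and 98.1 CPM in FceRIa-negative and 12.1, 13.8 and 12.5 CPM in FceRIa-positive macrophages. Replicate 3 stood out among the negative libraries, the positive libraries were close together, and the groups did not overlap. The difference was -2.22 ± 0.37 (adjusted p = 0.0591) without and -2.09 ± 0.24 (adjusted p = 0.000924) with the block. Spint1 followed the same pattern, with 11.2, 15.3 and 46.5 against 2.62, 1.88 and 2.38 CPM, and its paired difference was -3.16 ± 0.35 (adjusted p = 0.000826). Spint2 read 17.4, 13.3 and 13.7 against 7.40, 6.30 and 1.80 CPM and fell by 1.64 ± 0.31 (adjusted p = 0.0074). Its lowest library was positive replicate 3, and its call was lost without the pair numbered 1 (adjusted p = 0.0604).

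Some markers of other cells ran with these values and others did not. Epcam read 224, 163 and 529 CPM in FceRIa-negative and 30.3, 16.1 and 47.0 CPM in FceRIa-positive libraries, and Flt3, a marker of dendritic cells and their precursors, read 7.88, 6.41 and 15.8 against 1.66, 0.764 and 1.65 CPM. Both are highest in negative replicate 3, as are St14 and Spint1. So are Cdh1 (846, 546 and 1450 against 216, 140 and 306 CPM) and Kit (11.9, 10.2 and 16.9 against 3.84, 2.48 and 4.83 CPM). Of 9 tested leukocyte markers 5 fell in the paired fit, and of 6 mast cell markers 2 fell. Over all tested genes 10.2% were called lower. Krt14, by contrast, read 1700, 1240 and 129 against 1190, 788 and 97.1 CPM and was lowest in replicate 3 of both groups. All other keratinocyte markers except Epcam and Cdh1 were lowest there too. Of the 13 keratinocyte markers, 11 fell in the paired fit. The 13 summed to 5140, 3580 and 2360 against 3210, 2060 and 676 CPM. Cdh1 alone was 1450 CPM of this sum in negative replicate 3 and 306 CPM in positive replicate 3. Per 10000 Krt14 counts, Cdh1 stood at 1770 to 113000 in macrophage and 57.3 to 89.1 in tumor libraries. Epcam stood at 204 to 41000 and 43.5 to 60.7, so the sum is not a measure of keratinocyte transcripts alone. The part of keratinocytes or other cells in the protease differences was not tested.

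**Figure D3:**
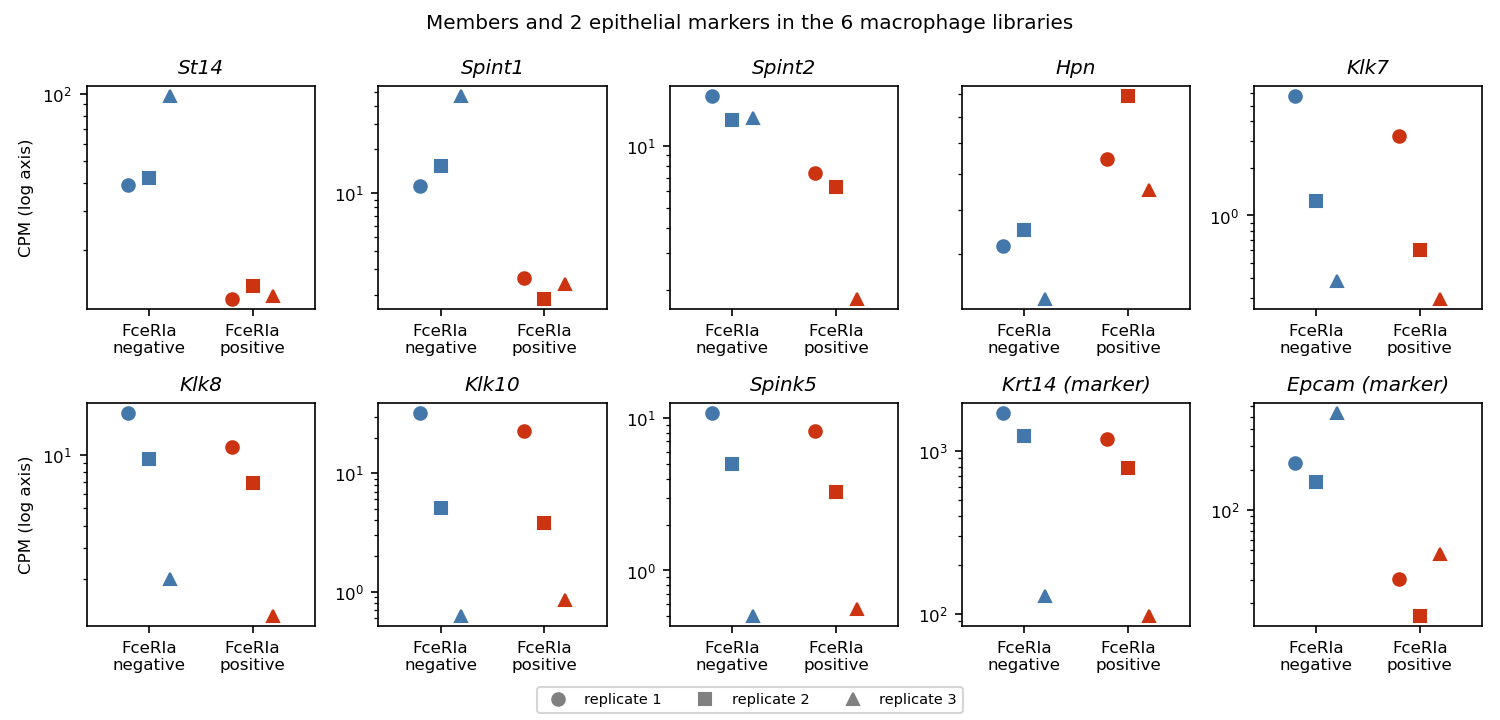
CPM (log axes, scaled separately) of 8 members in FceRIa-negative (blue) and FceRIa-positive (red) macrophage libraries, with shapes for the replicate number. Krt14 and Epcam, both from the keratinocyte marker list, are shown beside them. Epcam did not follow Krt14 in these libraries. St14 and Spint1 peak in negative replicate 3, at 98.1 and 46.5 CPM, as Epcam does, whereas Klk7, Klk8, Klk10 and Spink5 are highest in replicate 1 and lowest in replicate 3 of each group, as Krt14 is.

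Hpn was the only tested member that was higher in FceRIa-positive macrophages. It read 4.17, 4.53 and 3.19 CPM in the negative and 6.46, 8.89 and 5.53 CPM in the positive libraries, without overlap, a difference of 0.81 ± 0.25 (adjusted p = 0.18) without and 0.80 ± 0.14 (adjusted p = 0.00639) with the block. The call held without each pair in turn (adjusted p = 0.000537 to 0.0459).

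The kallikreins and the other skin proteases varied with the replicate number far more than with FceRIa. Klk8 read 17.1, 9.48 and 2.01 CPM in FceRIa-negative and 11.1, 6.90 and 1.24 CPM in FceRIa-positive libraries, and Klk7 read 5.75, 1.23 and 0.384 against 3.20, 0.60 and 0.294 CPM. Within each number the positive library was the lower, and in the paired fit Klk8 fell by 0.58 ± 0.13 (adjusted p = 0.0155) and Klk7 by 0.83 ± 0.23 (adjusted p = 0.041). Without the pair numbered 1 neither was called (adjusted p = 0.149 and 0.271), and Klk7 was not called without the pair numbered 2 either (0.151). In the unpaired fit, leaving out FceRIa-negative replicate 1 turned the differences of Klk8 and Klk7 to 0.16 and 0.75. Klk10, with 32.1, 5.07 and 0.621 against 22.9, 3.82 and 0.854 CPM, and Spink5, with 10.7, 5.0 and 0.503 against 8.20, 3.27 and 0.559 CPM, were not called (paired adjusted p = 0.196 and 0.165). Tmprss11b, Tmprss11e, Tmprss11g, Tmprss4 and Tmprss13 were each at most 4.27 CPM, had paired differences of -0.21 to -0.87 and were not called.

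The same pathway lists were read in the macrophages, where the paired fit called 10.8% of all tested genes higher and 10.2% lower. Of 13 tested substrates and receptors, 3 rose and 5 fell in the paired fit and 0 in the unpaired fit. Hgf, which encodes the growth factor that matriptase can activate, rose from 23.1, 40.6 and 17.8 to 44.4, 58.9 and 33.7 CPM, by 0.79 ± 0.10, while Epcam fell by 3.24 ± 0.13, F2rl2 by 1.70 ± 0.11 and Hgfac by 1.98 ± 0.28. Of 11 other inhibitors, 2 rose and 4 fell in the paired fit: Serpinb6a rose by 1.48 ± 0.15, whereas Serpinb5 and Cst6, both keratinocyte genes, fell by 0.45 and 1.42. None of the 5 desquamation genes was called in either fit (0 at an adjusted p under 0.05, all 5 lower on average), and of 14 other serine proteases only Prss12 fell, by 1.04 ± 0.29.

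Both cell types were set side by side in a fit over all 12 libraries, where cell type and sequencing table cannot be told apart. Of 22 tested members, 18 were higher in tumor cells and 1 was higher in macrophages, where 40.6% of all genes were called higher in tumor cells and 44.8% higher in macrophages. The log2 difference, tumor minus macrophage, was 5.40 ± 0.60 for Klk8, 4.98 ± 0.60 for Tmprss11e, 4.94 ± 0.45 for Tmprss4, 4.63 ± 0.29 for Spint2, 2.92 ± 0.31 for Spint1 and 2.43 ± 0.21 for St14. Hpn was the exception, at -3.66 ± 0.26 (adjusted p = 1.7e-07). Klk7 (0.37 ± 0.68, adjusted p = 0.617), Klk12 (1.52 ± 0.84, adjusted p = 0.111) and Spink2 (-0.93 ± 0.48, adjusted p = 0.0931) were not called. Klk6 passed at an adjusted p of 0.0404, which rose to 0.115 without both tumor libraries of number 2 and to between 0.0549 and 0.0938 without some single libraries (tumor negative 1 or 3, tumor positive 2, macrophage negative 2 or 3, macrophage positive 2 or 3), and Klk13 missed it without tumor number 2 (adjusted p = 0.0518).

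Levels of different genes were compared as CPM per kilobase of exon, as means over the 6 libraries of a cell type. In tumor cells Klk8 (214 ± 64.4, SD) and Klk10 (173 ± 69.0) were the highest, and their spreads overlap. Next came the inhibitor Spint2 at 46.2 ± 4.42, then Spint1 at 20.1 ± 3.12, St14 at 19.1 ± 2.32 and Tmprss4 at 17.7 ± 8.70, which do not differ beyond their spread. That order depends on the length used: per kilobase of the longest transcript St14 was at 41.1 ± 4.99, above Spint1 at 23.9 ± 3.71 and Tmprss4 at 20.0 ± 9.86. Spink5, Klk13, Tmprss13, Tmprss11e, Klk11 and Tmprss11b followed with means from 11.9 down to 5.0. With either length, 19 members had at least 1 CPM per kilobase in tumor cells. In macrophages Klk10 (7.76 ± 9.52), Klk8 (5.06 ± 3.82), Spint1 (4.68 ± 5.99) and St14 (4.63 ± 4.2) led with wide spreads, followed by Spint2 at 2.14 ± 1.25, Klk13 at 1.41 ± 1.40 and Hpn at 1.30 ± 0.474, which do not differ beyond their spread. Here too the order depends on the length used. Per kilobase of the longest transcript St14 had the highest mean (9.97 ± 9.04), above Klk10 (7.76 ± 9.52), Klk8 (5.89 ± 4.45) and Spint1 (5.57 ± 7.13), and Hpn (2.85 ± 1.05) lay beside Spint2 (2.99 ± 1.75).

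**Figure D4:**
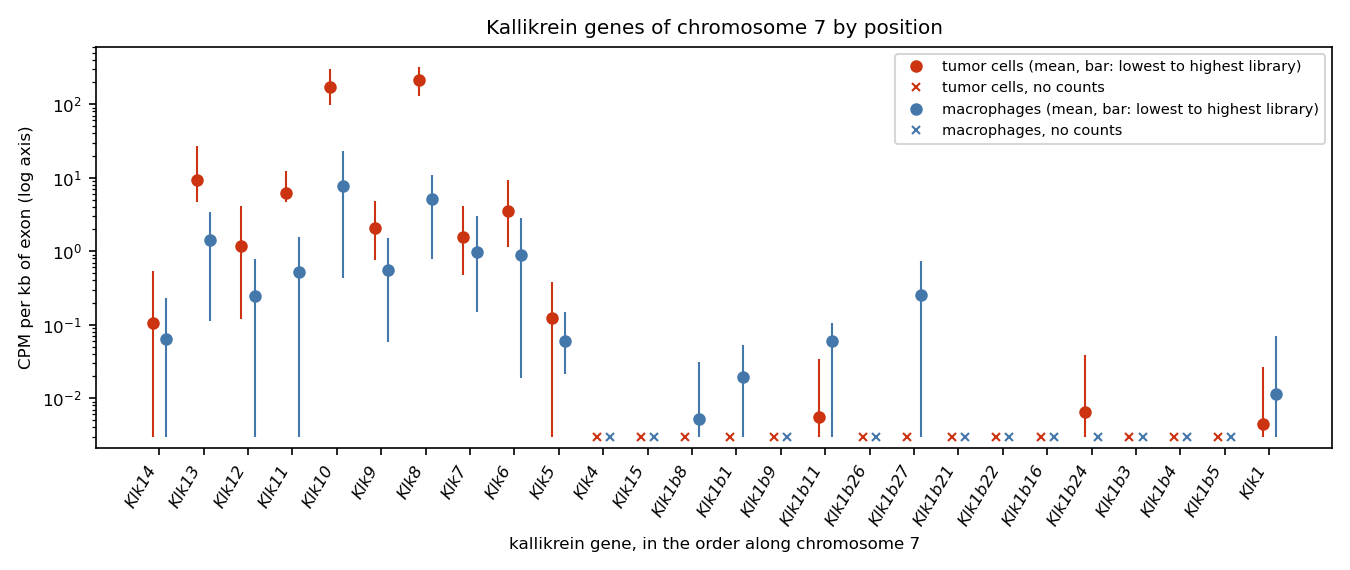
Mean CPM per kilobase of exon (log axis) of the kallikrein genes of chromosome 7 in their order along the chromosome, in tumor cells (red) and macrophages (blue); bars run from the lowest to the highest library and are cut at the bottom where the lowest is 0, and crosses mark genes with no count. Levels of 1.17 or more in tumor cells are confined to the 8 genes from Klk13 to Klk6, and the 14 Klk1 and Klk1b genes are near or at 0.

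Outside the Klk13 to Klk6 block, kallikreins were almost silent in both cell types. Klk14 and Klk5, which flank it and encode other proteases of the cornified layer, averaged 0.130 and 0.161 CPM in tumor cells, and Klk4 and Klk15 had no count in any library. None of the 14 Klk1 and Klk1b genes (43950664 to 44229618 on chromosome 7), the glandular kallikreins, passed the filter. Klk1b27 had the most counts, with 13, 3 and 23 in FceRIa-negative, 3, 0 and 8 in FceRIa-positive macrophages and 0 in tumor cells. These genes are related copies whose sequences were not compared here, so how reads were split among them is uncertain. Members with no count in any library numbered 14. A count of 0 allows a level of up to 0.0697 to 0.107 CPM in a library (3 counts, counting error only).

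Because keratinocyte transcripts were counted in the macrophage libraries, the members were also expressed per 10000 Krt14 counts of the same library. For Klk8 this ratio was 51.6 to 116 in the tumor libraries and 76.7 to 156 in the macrophage libraries, and for Klk10 it was 34.5 to 97.3 and 41.0 to 193, so the ranges overlapped for both. They overlapped also for Tmprss11e (4.52 to 13.4 and 3.95 to 18.2) and Tmprss4 (7.84 to 20.1 and 14 to 41.2). The same held for Klk6 (0.44 to 3.27 and 3.03 to 25.5), Klk11 (1.77 to 4.24 and 0 to 13.7) and Klk12 (0.0431 to 1.16 and 0 to 5.6). Spink5, Spink7, Tmprss11b, Tmprss13 and Tmprss2 overlapped as well. The remaining kallikreins of the block lay higher in every macrophage library than in any tumor library: Klk7 at 0.233 to 1.82 in tumor and 7.61 to 33.7 in macrophage libraries, Klk13 at 3.02 to 14.6 and 22.2 to 57.8, and Klk9 at 0.285 to 1.66 and 3.2 to 14.9. So did Krt1, a suprabasal keratin, at 11.2 to 62.4 and 206 to 2000. St14 (36.2 to 45.1 and 102 to 7600), Spint1 (12.5 to 18.6 and 22.1 to 3600), Spint2 (55.9 to 60.5 and 62.2 to 1060) and Hpn (0.0431 to 0.251 and 24.5 to 570) were likewise apart, as were Prss8 (1.16 to 2.03 and 2.08 to 9.09) and Tmprss11g (1.39 to 3.13 and 7.27 to 16.7). The macrophage libraries numbered 3, with the least Krt14, gave the highest ratios for St14, Spint1, Spint2 and Hpn. These ratios are descriptions, and the source of the reads was not tested.

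**Figure D5:**
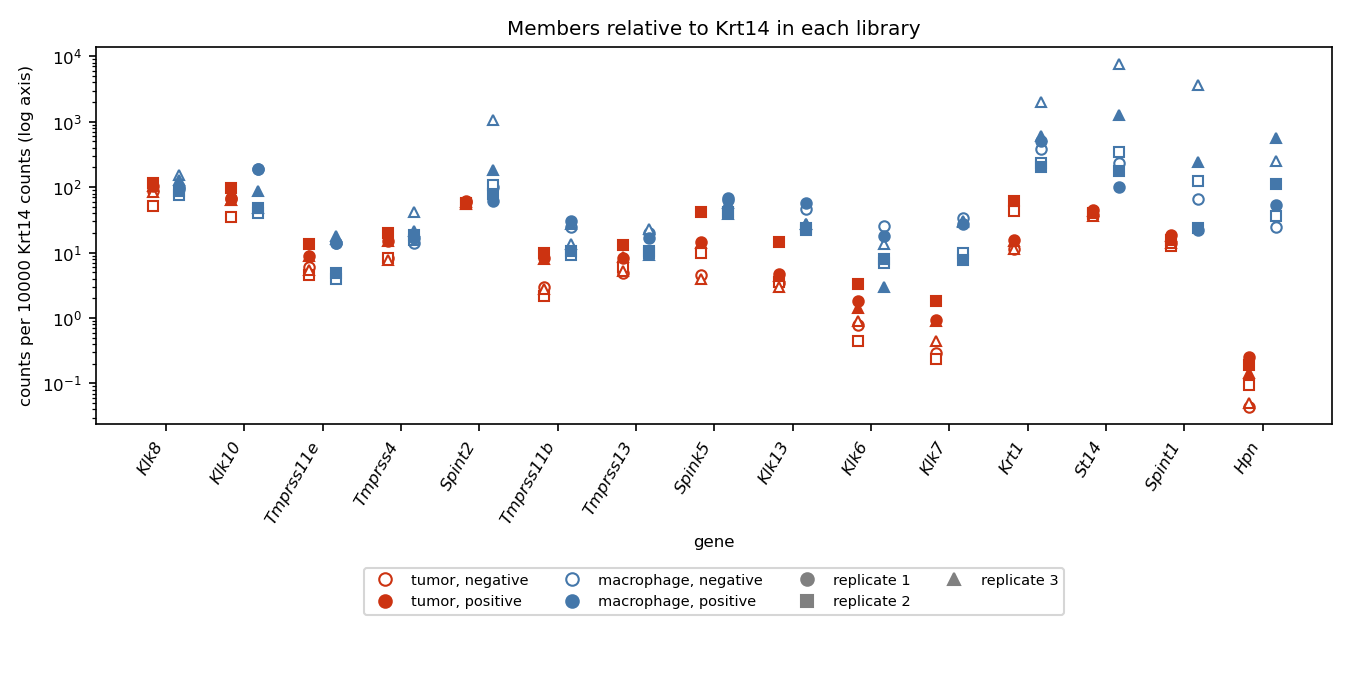
Counts per 10000 Krt14 counts (log axis) of 14 members and the suprabasal keratin Krt1 in each library; red is tumor and blue macrophage, open symbols are negative and filled symbols positive libraries, and shapes give the replicate number. For Klk8 and Klk10 the 2 cell types overlap, while St14, Spint1 and Hpn are higher in every macrophage library, with Hpn at 24.5 to 570 against at most 0.251 in tumor libraries.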

How the data were processed

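Trizol RNA of the sorted cells went into Illumina TruSeq v2 libraries, per the labels' protocols. The authors deposited a table of raw counts per gene for each cell type. The submitters' processing notes name FastQC, STAR and the builds mm10 and GRCm38 with no version, and nothing read here states the counting tool or its strand setting. Of the count columns, 4 belong to no sample of the series and were left out. Groups and numbers came from the titles, and the tables were joined by gene ID.

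The test was edgeR's quasi-likelihood test (version 4.0.16, R 4.3.3; TMM scaling, the filterByExpr filter, two-sided, Benjamini-Hochberg over all genes tested, threshold 0.05), run for each cell type on its own 6 libraries and, for tumor against macrophage, on all 12. The filter left 13604, 14988 and 16279 genes. The paired fit has the replicate number as a block and 2 residual degrees of freedom, against 4 without it; no label says what the numbers stand for, and the pairing was read from the correlations of deviations given above. The tests were run on simulated counts with known changes before use. Exon lengths and coordinates are from GENCODE M21 on GRCm38, where all 62 members were found by ID, and CPM per kilobase uses the union of exons. Promoters are from RefSeq (GRCm38.p6).

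Members, lists and tests were chosen with earlier results of these data known. Described with values are St14, Prss8, Spint1, Spint2, Hpn and Spink5, members with an adjusted p under 0.05 in either cell type with or without the block, and those with a mean of at least 5 CPM in either cell type; pathway genes are at most 4 per list and comparison by smallest p. Met and F2r are given beyond this limit, as the pathway genes that fell in tumor cells. Tmprss2, Klk9, Klk5, Klk14, Klk1b27 and the markers named beside results were given values after these were seen. Alternatives were DESeq2 1.42.0, other scaling factors and filters, the block, and leaving out libraries or numbers.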

Additional observations from a re-analysis of the deposited data

How the results depend on the processing

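Each number below is a count of members called, against 1 higher and 0 lower in tumor cells, 0 and 0 in macrophages and, for tumor against macrophage, 18 higher in tumor cells and 1 in macrophages. In tumor cells the count of higher members was 11 with DESeq2, 3 without a filter on low counts, 2 with a filter of 1 CPM, 13 with the replicate block, 16, 18 and 13 with the block and without the pair numbered 1, 2 and 3, 18 without both libraries of number 2, 14 at an unadjusted p, and, with numbers 1 and 3 summed, 0 without and 11 with the block. Leaving out each tumor library gave 0 to 5 (5 without reporter-positive replicate 2). No alternative called a tumor member lower (0 in each). In macrophages the counts higher and lower were 1 and 3 with DESeq2, 0 and 2 without a filter, 1 and 5 with the replicate block, 1 and 2, 1 and 4, and 1 and 8 with the block and without the pair numbered 1, 2 and 3, and 1 and 3 at an unadjusted p, and leaving out each library gave 0 to 0. For tumor against macrophage, members higher in macrophages were 4 with DESeq2, 4 without a filter, 3 without both tumor libraries of number 2 and 1 to 3 when each library was left out, and members higher in tumor cells were 14 to 20 over these. The share of all genes called moved between settings too. In tumor cells the share called higher was 0.573% in the main fit, 5.09% with DESeq2, 10.7% with the block and 11.1% at an unadjusted p. It was 20.4% without both libraries of number 2 and, with numbers 1 and 3 summed, 0% without and 4.8% with the block. For settings with no share given here or above, the member counts cannot be set against all genes. The cause of each shift was not tested. No paired analysis was possible for tumor against macrophage because the labels do not tie tumor numbers to macrophage numbers.

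Signs turned for members that the unpaired fit did not call. In tumor cells Klk10 was -0.07 without number 2, with or without the block, and over the fits that leave out 1 library Spint2 ranged from -0.04 to 0.12. In macrophages those fits, which turned positive without negative replicate 1 for every gene named here, ranged from -2.42 to 1.69 for Klk10, -1.99 to 0.81 for Klk11, -1.77 to 0.95 for Klk13, -2.42 to 0.81 for Klk6, -2.44 to 0.75 for Klk7, -1.22 to 0.16 for Klk8, -1.49 to 0.54 for Spink5, -1.77 to 1.25 for Tmprss11b, -1.85 to 1.09 for Tmprss11e, -1.78 to 0.24 for Tmprss11g, -1.92 to 0.23 for Tmprss13 and -0.93 to 0.09 for Tmprss4. Without positive replicate 3 the signs of Klk10, Klk13, Spink5, Tmprss11b and Tmprss4 turned too, and that of Tmprss11b without positive replicate 2. The count of members at 1 CPM per kilobase or more in tumor cells was 19 with either measure of length. The 23 members with no count in tumor cells and the 15 with none in macrophages can be described only up to the limit that a count of 0 allows.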
